A study of Mus musculus with 2 samples.

Results

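Prdx2, Hspb7 and Carhsp1 are 3 mouse genes named for, or linked to, responses to stress. Each was read by 1 of the 50 gene probes that the arrays carried beside 14400 small-RNA probes. The probes were chosen by the transcript accession the scanner files give them, namely NM_011563 for Prdx2, NM_013868 for Hspb7 and NM_025821 for Carhsp1. Accessions gave a symbol to 46 of the gene probes. The cells were BV-2, an immortalised mouse microglial line grown in serum-containing medium. The OGD/R array came from cells that spent 2 h at 37 °C without oxygen (5% CO2 and 95% N2) and without glucose or serum, and were then returned to oxygen and regular medium. The sources used here do not give the time allowed for recovery. The control array came from BV-2 cells without that treatment, also kept at 37 °C and 5% CO2. On both arrays the RNA eluted from the immunoprecipitation beads, called IP and taken as the modified fraction, carried the red dye Cy5. The RNA left in the supernatant, called Sup and taken as the unmodified fraction, carried the green dye Cy3. The dyes were not swapped, so that dye and fraction cannot be told apart on 1 array. The modification that was precipitated is not named in the sources used here. With 1 array per group no difference has a replicate check, and no p-value was computed.

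Oxygen and glucose deprivation followed by their return is a culture model of ischemia and reperfusion, in which reactive oxygen species, calcium overload and protein damage are known to follow. Prdx2 encodes a cytosolic peroxiredoxin, an abundant enzyme that reduces hydrogen peroxide through a reactive cysteine and is recycled by thioredoxin. Hspb7 encodes a small heat shock protein, best known from heart and skeletal muscle, whose family holds damaged proteins in a soluble state. Carhsp1 encodes a calcium-regulated phosphoprotein with a cold shock domain, an RNA-binding fold, and in mouse macrophages it is known to stabilise the mRNA of tumour necrosis factor. In assays of this kind modified RNA is pulled down and separated from the rest, so that the split of a transcript between IP and Sup stands for how much of it carries the modification.

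The DNA before the start of each gene is shown because the treatment withdraws oxygen, and the core of the hypoxia response element, the site bound by hypoxia-inducible factors, can be looked for in it. These are the 250 bases upstream of the RefSeq start of each gene in build GRCm38.p6, with capitals marking ACGTG or GCGTG on either strand. Their positions are chr8:84969372-84969621 (+) for Prdx2, chr4:141420529-141420778 (+) for Hspb7 and chr16:8672154-8672403 (-) for Carhsp1.
Prdx2: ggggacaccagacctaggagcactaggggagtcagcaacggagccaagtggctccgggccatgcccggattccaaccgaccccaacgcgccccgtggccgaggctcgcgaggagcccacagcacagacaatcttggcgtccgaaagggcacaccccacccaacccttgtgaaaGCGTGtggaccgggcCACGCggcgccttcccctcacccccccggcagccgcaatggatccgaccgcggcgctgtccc
Hspb7: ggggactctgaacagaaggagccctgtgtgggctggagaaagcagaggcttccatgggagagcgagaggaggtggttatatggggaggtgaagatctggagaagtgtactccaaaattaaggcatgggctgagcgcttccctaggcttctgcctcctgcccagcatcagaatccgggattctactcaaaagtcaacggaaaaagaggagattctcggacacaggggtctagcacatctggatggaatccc
Carhsp1: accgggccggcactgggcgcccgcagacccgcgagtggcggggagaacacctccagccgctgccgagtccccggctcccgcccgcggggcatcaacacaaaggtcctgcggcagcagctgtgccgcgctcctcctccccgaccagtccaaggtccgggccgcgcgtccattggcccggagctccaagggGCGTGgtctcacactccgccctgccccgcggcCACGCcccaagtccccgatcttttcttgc
The Prdx2 window held 2 such cores, which begin 77 and 62 bases before the start. The Carhsp1 window held 2, which begin 61 and 29 bases before it, and the Hspb7 window held 0. Of all 32851 windows of this length in the RefSeq promoter table, 38.6% held at least 1. The heat shock element core GAANNTTC (6.69% of all windows) and the antioxidant response element core TGACNNNGC (10.2%) had 0 matches in these 3 windows on either strand. The content of G and C was 69.2% for Prdx2, 53.6% for Hspb7 and 73.2% for Carhsp1. Over all windows the median was 52.4% and the 95th percentile 73.6%. The shares of windows with a match were not matched for G and C content. A match of letters is a description and does not show binding. The sequences of the array probes themselves were not used here.

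Each array held 15742 spots, and 0 were saturated. Repeat spots that the scanner software marked as outliers were left out, which took 1 of the 10 Prdx2 spots and 2 of the 10 Carhsp1 spots on the OGD/R array and 1 Carhsp1 spot on the control array. All retained spots of the 3 genes were well above background in both channels, by the scanner software's own call. The 3 probes belong to a set of 34 measured gene probes, for which at least 50% of the retained spots passed that call, channel by channel and array by array. Of 14 microglia markers only Apoe had a named gene probe, and it was measured in both channels on both arrays. Markers such as Aif1, Cx3cr1, P2ry12 and Tmem119 had none, so the cell type could not be checked. No gene on a list of 8 heart and skeletal muscle markers had a named gene probe either, nor did 5 neuron, 5 astrocyte and 4 endothelium markers. Of 5 oligodendrocyte markers Mbp had one, which was not measured in both channels on both arrays. Whether each probe also binds related transcripts was not tested. In a bulk extract, fewer cells with a transcript and less of it per cell cannot be told apart.

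Prdx2 had a lower Sup signal (1.38-fold) and a slightly higher IP signal (1.18-fold) in OGD/R. The processed IP signal, which is the scanner software's background-subtracted and dye-normalized intensity, ran from 38850 through a median of 41014 to 41537 over 9 spots in OGD/R. In control it ran from 36379 through 38549 to 38983 over 10 spots. Before scaling the IP ranges overlapped slightly. Sup signal lay between 57932 and 63696, with a median of 62619, in OGD/R, against 86011 to 92575 with a median of 90825 in control. Every Sup spot of the OGD/R array was dimmer than every Sup spot of the control array, as for 58.8% of the measured gene probes after scaling. After scaling each channel between arrays on its 75th percentile, Prdx2 differed by 0.24 in IP and by -0.46 in Sup (log2, OGD/R minus control). The spot SD was 0.05 for each, and after scaling the IP spots were higher without overlap, as for 41.2% of the measured gene probes. A spot SD combines the scatter over repeat spots of both arrays and holds no error between arrays or cultures.

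The IP share of the Prdx2 signal, IP divided by the sum of the channels, was 39.6% ± 0.46 in OGD/R (SD, 9 spots) and 29.8% ± 0.48 in control (SD, 10 spots). The lowest OGD/R spot was at 38.9% and the highest control spot at 30.7%, so the arrays did not overlap. The log2 IP/Sup, centred on each array's median RNA, averaged -0.31 in OGD/R and -0.96 in control, a difference of 0.65 with a spot SD of 0.04, or 1.57-fold. At the 9 positions retained on both arrays the difference ran from 0.60 to 0.71. Prdx2 was the only 1 of the 34 measured gene probes (2.94%) with an IP share under 50% on both arrays, a share that rests on the dye normalization and on how each probe's RNA takes up label. Total signal, the sum of the channels scaled on its 75th percentile, differed by -0.23 with a spot SD of 0.05. Scaled on the spike-in probes it differed by 0.20, and by -0.00056 when each spike-in probe was matched between arrays, so its direction is not settled.

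**Figure D1:**
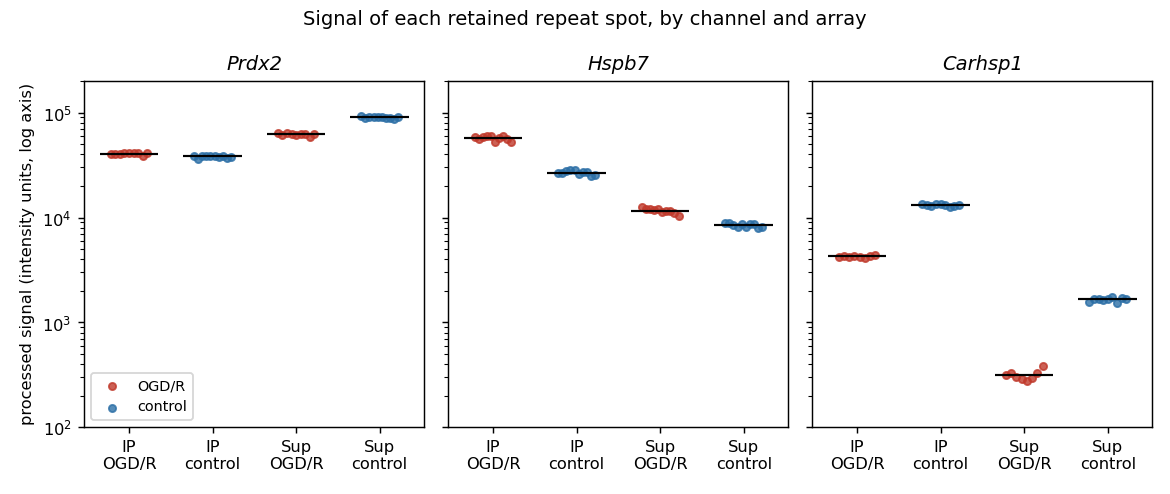
Processed signal (vertical log axis, intensity units) of each retained repeat spot of Prdx2, Hspb7 and Carhsp1, in the IP and Sup channels of the OGD/R array (red) and the control array (blue), with black bars at the geometric mean over spots. Prdx2 differs mainly in Sup, Hspb7 is brighter in OGD/R in both channels, and Carhsp1 is dimmer in OGD/R in both.

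Hspb7 had the brighter signal in OGD/R in both channels, and more so in IP. Its processed IP signal ran from 52673 through a median of 58399 to 59769 over 10 spots in OGD/R, against 24843 through 26889 to 28597 over 10 spots in control. Its Sup signal ran from 10342 through 11753 to 12470 in OGD/R and from 7916 through 8517 to 8910 in control. In neither channel did the spots of the arrays overlap. After scaling, 41.2% of the measured gene probes were higher without overlap in IP and 20.6% in Sup. The scaled difference was 1.24 in IP (spot SD 0.10), which is 2.36-fold, and 0.53 in Sup (spot SD 0.10), which is 1.44-fold. The IP difference was at least 2-fold, as was that of 4 of the 34 measured gene probes with Hspb7 counted (11.8%). It was at least 2-fold in each of the 9 other settings tried, with 1.01 as the lowest.

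The IP share of Hspb7 was 83.1% ± 0.51 in OGD/R and 76.0% ± 0.87 in control (SD, 10 spots each). The lowest OGD/R spot was at 82.3% and the highest control spot at 77.8%. Its log2 IP/Sup averaged 2.60 in OGD/R and 1.95 in control, a difference of 0.65 with a spot SD of 0.09, or 1.57-fold. The difference was positive at 10 of 10 positions, from 0.54 to 0.74. The total signal of Hspb7 was higher in OGD/R by 1.05 on the log2 scale, or 2.07-fold, with a spot SD of 0.09 and a range over positions from 0.99 to 1.11. It was the third highest total difference among the 34 measured gene probes, of which 8.82% had a total at least 2-fold higher. That was so for 1.24% of 7470 RNA probes, all of them small-RNA probes except for at most 50 gene probes. Without overlap of spots, totals were higher in 26.5% of the measured gene probes and lower in 58.8%. The value lies at the threshold, and it was 0.87 with the normexp background correction, 0.96 without scaling and 1.48 on the spike-in scale.

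Carhsp1 had the lower signal in OGD/R in both channels, and more so in Sup. Its processed IP signal ran from 4160 through a median of 4251 to 4381 over 8 spots in OGD/R, against 12728 through 13049 to 13551 over 9 spots in control. Its Sup signal ran from 279 through 311 to 383 in OGD/R and from 1533 through 1666 to 1756 in control. The arrays were far apart in both channels, with no overlap of spots. After scaling, 35.3% of the measured gene probes were lower without overlap in IP and 58.8% in Sup. The scaled difference was -1.47 in IP (spot SD 0.04), which is 2.78-fold lower, and -2.32 in Sup (spot SD 0.15), which is 5.01-fold lower. The Sup signal was at least 2-fold lower in 8 of the 9 other settings tried. With normexp the difference was -0.89 in Sup and -1.19 in IP, so the order of the channels turned. An IP signal at least 2-fold lower was found in 5.88% of the measured gene probes and a Sup signal at least 2-fold lower in 38.2%. Its Sup difference was the lowest of the 34 and its IP difference the second lowest.

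Total Carhsp1 signal was lower in OGD/R, by a log2 difference of -1.61 or 3.04-fold, with a spot SD of 0.04 and a range over positions from -1.65 to -1.54. It was the lowest total difference of the 34 measured gene probes. At least 2-fold lower totals made up 5.88% of them and 0.843% of the 7470 RNA probes. The total was at least 2-fold lower in each of the 10 other settings tried, from -1.09 with normexp to -1.69 without scaling.

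The IP share of Carhsp1 was 93.1% ± 0.58 in OGD/R (SD, 8 spots) and 88.8% ± 0.46 in control (SD, 9 spots), with the lowest OGD/R spot at 92.0% and the highest control spot at 89.4%. Its log2 IP/Sup averaged 4.06 in OGD/R and 3.26 in control, a difference of 0.79 with a spot SD of 0.14, or 1.74-fold. This difference rests on a dim channel. Before dye normalization the background-subtracted Sup signal had a median of 13.5 in OGD/R and 74.2 in control, and the uncorrected spots had medians of 35.5 and 97 over a local background of 12 and 11, in the same order. The processed Sup signal in OGD/R was 2.92 times the lowest one well above background on that array, against 14.7 times in control. With only the local background subtracted the ratio difference was 0.26. With normexp, which adds an offset of 50 to both channels, it was -0.29, and -0.42 with loess after it. The sign of the Carhsp1 ratio turned only in these settings. They began from the raw spot medians, without the scanner software's detrending and dye normalization, changed the background model and added the offset. The setting with only the local background subtracted also began from the raw spot medians, without detrending and dye normalization. There the ratio difference kept its sign, at 0.26. The change of background model and the offset were not tested apart from each other. Both channels were lower in OGD/R in all settings tried.

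**Figure D2:**
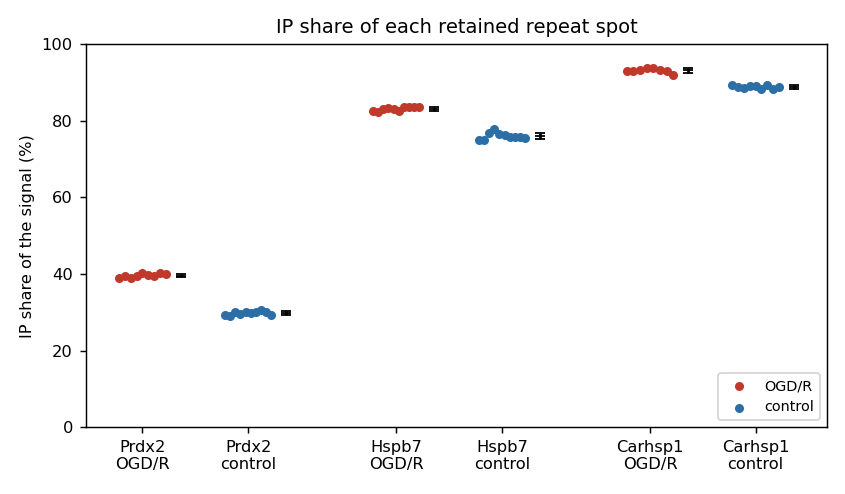
IP share of the signal in percent (vertical axis, 0 to 100) for each retained repeat spot of the 3 genes, with the mean and SD over spots in black beside the points, for OGD/R (red) and control (blue). Mean shares were 39.6% in OGD/R and 29.8% in control for Prdx2, 83.1% and 76.0% for Hspb7, and 93.1% and 88.8% for Carhsp1.

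For 0 of these 3 genes did the ratio reach 2-fold in either direction. Among the 34 measured gene probes 26.5% were past 2-fold toward a higher ratio in OGD/R and 5.88% toward a lower one. Among the 7470 RNA probes these shares were 4.27% and 5.97%, in that order. The ratio was higher in OGD/R without overlap of spots for all 3 genes, as it was for 73.5% of the measured gene probes, while 8.82% were lower without overlap. By any amount it was higher for 85.3%. The median ratio difference was 0.65 over the 3 genes, 0.59 over the other 31 measured gene probes and 0.02 over the 7470 RNA probes. The last value is small by construction, since the ratios were centred on the median of these same RNA probes, nearly all of them small-RNA probes. The 7470 passed the background call in 1 channel or both, the measured gene probes in both. In order of the ratio difference Carhsp1 was the 14th highest of the 34, Hspb7 the 17th and Prdx2 the 18th. The higher ratios of these genes thus lie in the middle of those of the gene probes. The 36 measured spike-in probes had a median ratio difference of 0.20, and centring on that difference, with each spike-in probe matched between arrays, left 0.44 for Prdx2, 0.45 for Hspb7 and 0.59 for Carhsp1. Centring each array on the median ratio of its own spike-in probes was a larger shift and left 0.20 for Prdx2, 0.21 for Hspb7 and 0.35 for Carhsp1.

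Prdx2 and Hspb7 had the same ratio difference of 0.65 with different signs in Sup, which was lower in OGD/R for Prdx2 and higher for Hspb7. Which channel differed more in Prdx2 turned with the scaling. It was Sup on the percentile scale, with 0.24 in IP and -0.46 in Sup, but IP on the spike-in scale, with 0.26 in IP and -0.18 in Sup. With spike-in probes matched between arrays the Prdx2 values were 0.28 in IP and -0.13 in Sup. A higher IP with a lower Sup signal, as in Prdx2, was seen in 20.6% of the measured gene probes. Both channels were higher in 26.5%, as in Hspb7, and both were lower in 50%, as in Carhsp1. Median differences over the 34 gene probes were -0.03 in IP, -0.53 in Sup and -0.22 in total signal, so the Prdx2 values in Sup and total lie near the middle of them. Hspb7 and Carhsp1 lie toward opposite ends of the total differences, which ran from -1.61 to 1.25.

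**Figure D3:**
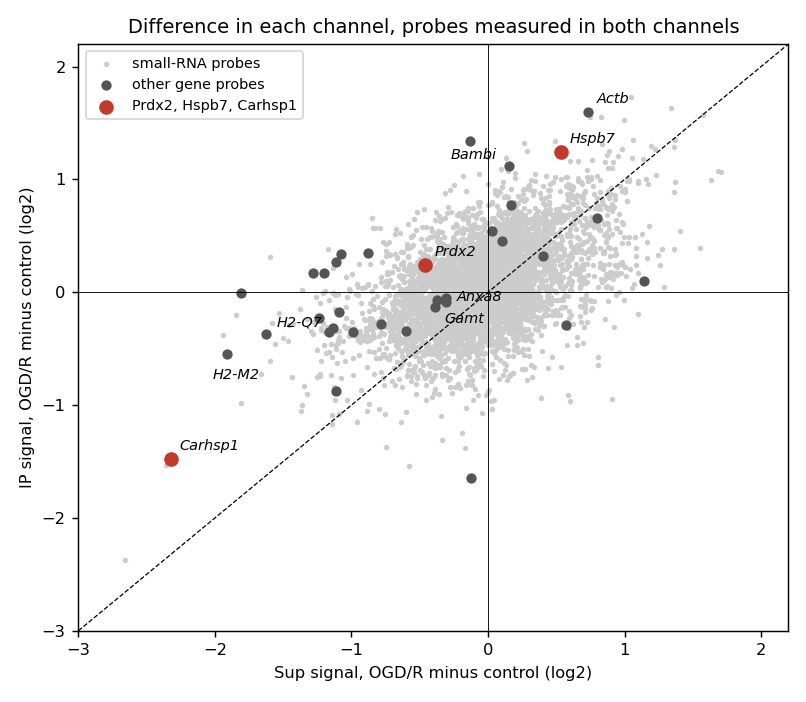
Difference of the scaled signal between OGD/R and control (log2, OGD/R minus control) in Sup (horizontal) and IP (vertical) for the 34 measured gene probes and 4875 small-RNA probes measured likewise (2 small-RNA probes lie outside the axes). The dashed line marks an equal difference in both channels, and all 3 genes in red lie above it, Carhsp1 at the lower left and Hspb7 at the upper right.

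The gene probes most like each gene were taken as the 2 with the smallest distance between their pairs of IP and Sup differences, among 32 other measured probes with a symbol. The measure rests on 4 values per probe, 1 for each channel of 2 arrays. For Prdx2 these were Gamt, which encodes an enzyme of creatine synthesis, at a distance of 0.32 (log2), and the annexin gene Anxa8 at 0.33. Their IP differences of -0.07 and -0.05 have the opposite sign to that of Prdx2, and the IP spots of both overlapped between arrays. Anxa8 spots overlapped in Sup too, with a spot SD of 0.28 in IP and 0.46 in Sup, so its nearness to Prdx2 is uncertain. For Hspb7 they were Bambi, which encodes a decoy receptor of transforming growth factor beta signalling, at 0.40, and the beta-actin gene Actb at 0.41. Bambi differed by 1.12 in IP and 0.15 in Sup, and Actb by 1.60 and 0.73. Carhsp1 had no gene probe as near, since the nearest were H2-M2 at 1.02 and H2-Q7 at 1.31, which both encode heavy chains of class I histocompatibility molecules. H2-M2 differed by -0.55 in IP and -1.91 in Sup, and H2-Q7 by -0.37 and -1.63.

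Repeat spots lay at scattered positions, so an uneven array surface could be looked at directly. The ratio difference was 0.64 for Prdx2 over the spots in the first 96 rows of the arrays and 0.66 over those in the other rows. Hspb7 gave 0.67 and 0.65, and Carhsp1 0.75 and 0.83, for the first 96 and the other rows in that order. Carhsp1 varied most over positions, from 0.57 to 1.06. Its differences in IP were within -1.52 to -1.42 and those in Sup within -2.58 to -2.05, so most of the scatter lay in the Sup channel.

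**Figure D4:**
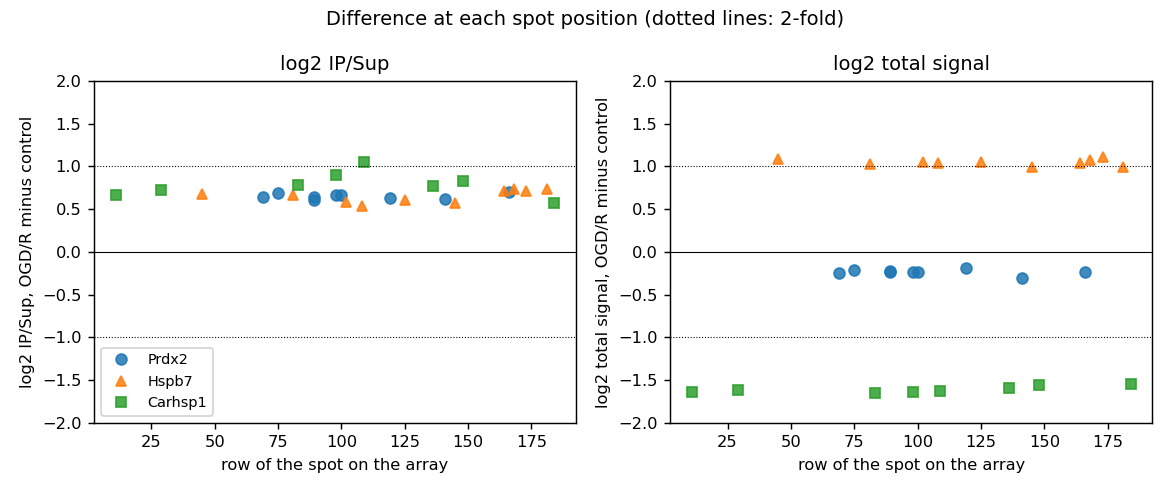
Difference of log2 IP/Sup (left) and of log2 total signal (right), OGD/R minus control, at each spot position retained on both arrays, against the row of the spot (dotted lines mark 2-fold). The ratio differences are above 0 at all positions, and the totals keep apart, with Hspb7 between 0.99 and 1.11, Prdx2 between -0.31 and -0.19 and Carhsp1 between -1.65 and -1.54.

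Few related genes were on the arrays. Of 29 genes of peroxide and thiol defence 1 had a named gene probe, Prdx2 itself. The same held for Hspb7 among 26 heat shock proteins and co-chaperones and for Carhsp1 among 10 cold shock domain and cold-inducible RNA-binding genes. A list of 11 genes of tumour necrosis factor and its RNA regulators again held Carhsp1 alone. Of 14 genes of the unfolded protein and integrated stress response 0 had a probe. Of 25 hypoxia response genes 1 did, Gpi1, which encodes the glycolytic enzyme glucose-6-phosphate isomerase. Gpi1 differed by 0.27 in IP, -1.11 in Sup and 1.32 in ratio. Like Prdx2 it had a higher IP and a lower Sup signal in OGD/R, as did 20.6% of the measured gene probes. With 1 gene in each list, nothing can be said of these pathways as groups.

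**Figure D5:**
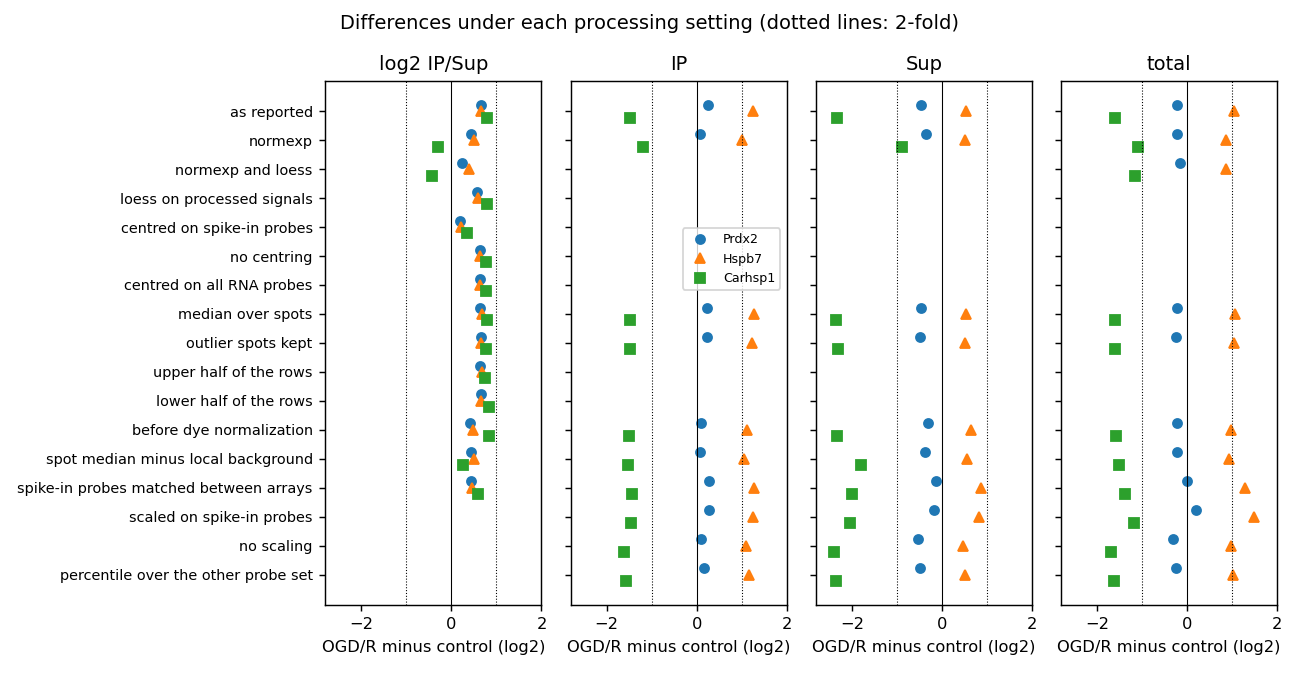
Differences between OGD/R and control (log2, OGD/R minus control) of the ratio, the IP, Sup and total signal of the 3 genes under the reported and the other processing settings, with dotted lines at 2-fold. Carhsp1 is below 0 in IP, Sup and total in all settings shown and crosses 0 in the ratio with normexp, and Hspb7 is above 0 in all panels.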

How the data were processed

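The deposited scanner files hold fluorescence intensity per spot and channel for 2 two-colour arrays, from Agilent Feature Extraction 11.0.1.1 per the file headers. Per the file headers, that software made the processed intensities by subtracting background, detrending and normalizing the dyes array by array, with no scaling between arrays. Dye normalization removes a change in the overall balance of IP and Sup. The authors' deposited table of 5702 small-RNA probes held 0 of the gene probes and was not used. Control spots and spots marked as outliers were left out. The log2 values of repeat spots were averaged. Ratios were centred on the median of 7470 RNA probes, nearly all of them small-RNA probes, that passed the background call on both arrays, in 1 channel or both. IP was scaled on the 75th percentile of probes well above background in it on both arrays, Sup on that of all non-control probes and the total on that of the 7470. Differences are OGD/R minus control and were read against 2-fold, without a test. The number of arrays limits the precision. Python 3.11.15, R 4.3.3 and limma 3.58.1 were used, and the computation was tested on simulated data. The 3 genes and all gene lists were chosen with earlier results of these data known. The rule for named genes took these 3, their 2 nearest gene probes each and list members with a probe. Gene symbols came from RefSeq (GRCm38.p6). Alternatives covered background correction, dye normalization, centring, scaling, outlier spots, spot position and thresholds.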

Additional observations from a re-analysis of the deposited data

How the results depend on the processing

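Of 147 values of the 3 genes under other settings, 69 stayed within the spot SD of the reported value, 75 moved by more without a change of sign and 3 changed sign. With normexp the log2 IP/Sup difference was 0.44 for Prdx2, 0.50 for Hspb7 and -0.29 for Carhsp1. The IP differences were then 0.067, 1.01 and -1.19, in the same order, and the Sup differences -0.36 for Prdx2 and -0.89 for Carhsp1. Totals were 0.87 for Hspb7 and -1.09 for Carhsp1. IP shares with normexp were 30.0% in OGD/R and 23.8% in control for Prdx2, 71.1% and 63.2% for Hspb7 and 71.4% and 75.2% for Carhsp1. With normexp and loess the ratios differed by 0.23, 0.39 and -0.42 and the totals by -0.17, 0.87 and -1.15 for Prdx2, Hspb7 and Carhsp1. Loess on the processed signals gave 0.57 for the Prdx2 ratio. Centred on each array's spike-in median the ratios were 0.20, 0.21 and 0.35. Scaled on them, Sup differed by -0.18, 0.82 and -2.04 and the total by 0.20, 1.48 and -1.17. That scale moved the median total of all RNAs by 0.43.

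Settings chosen after the values were seen were these. Before dye normalization the ratio differed by 0.40 for Prdx2 and 0.47 for Hspb7, IP by 0.089 and 1.11 and Sup by -0.32 and 0.64. IP shares were then 29.2% in OGD/R and 23.1% in control for Prdx2, 72.4% and 64.6% for Hspb7 and 89.4% and 81.9% for Carhsp1. With the spot median minus local background the ratios were 0.43, 0.49 and 0.26, IP 0.065, 1.06 and -1.52, and Sup -0.38 for Prdx2 and -1.79 for Carhsp1. Totals were 0.94 for Hspb7 and -1.52 for Carhsp1. IP shares were then 29.4% in OGD/R and 23.2% in control for Prdx2, 71.9% and 64.1% for Hspb7 and 83.1% and 80.2% for Carhsp1. With each spike-in probe matched between arrays the ratios were 0.44, 0.45 and 0.59, Sup -0.13, 0.86 and -2.0 and totals -0.00056, 1.28 and -1.38 for the 3 genes in that order, and IP was -1.43 for Carhsp1.

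Without scaling, IP was 0.094 for Prdx2, 1.09 for Hspb7 and -1.62 for Carhsp1, Sup -0.53 for Prdx2, and the total -0.32 for Prdx2 and -1.69 for Carhsp1. With the percentile over all non-control probes, IP was 0.16 for Prdx2 and -1.56 for Carhsp1. Gene probes with a ratio at least 2-fold higher numbered 9, but 2 with normexp and 19 at a threshold of 1.5-fold. Lower ratios numbered 2, but 0 with normexp. Totals at least 2-fold higher numbered 3, but 1 with normexp, 6 at 1.5-fold and 6 on the spike-in scale. Lower totals numbered 2, but 5 at 1.5-fold and 1 on that scale. Normexp starts from the raw spot medians, so it also leaves out the scanner software's detrending and dye normalization. It changes the background model and adds an offset of 50, beside a Carhsp1 Sup signal in OGD/R with a median of 24 above local background. The cause of these shifts was not tested. No paired analysis was possible because each group had 1 array, and no array could be left out.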
